A study of Mus musculus with 8 samples.

Results

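Small leucine-rich proteoglycans are secreted proteins of the extracellular matrix. The 10 genes described here are Prelp, Fmod, Dcn, Bgn, Lum, Ogn, Omd, Aspn, Ecm2 and Podn. They were taken by name from the 27179 genes that were counted, and all 10 passed the filter for testing, a level of at least 1 CPM (counts scaled to a common library total) in at least 2 libraries. Prelp and Fmod are treated apart from the other 8 genes, a split that was given with the list. It sets a pair linked to the thymic cortex against genes commonly used for mesenchymal cells. The 10 genes, the split and the gene lists used below were chosen with earlier results of these data known. Their p-values are thus not those of genes picked without sight of the data.

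The measurements are RNA counts of thymic epithelial cells from C57BL/6 mice, in 8 libraries made from frozen pellets of cells. Cortical thymic epithelial cells (cTECs) of wild-type (WT) mice gave 4 libraries, and medullary thymic epithelial cells (mTECs) of WT mice gave 2. Mice labelled as Mcl1 knock-out (KO) gave 1 cTEC library and 1 mTEC library, so neither KO group has a spread of its own. The labels give no driver of the deletion, no deleted part of Mcl1, no age, and no statement that libraries came from separate animals, so p-values measure only the spread between these libraries. Mcl1 encodes an anti-apoptotic protein of the BCL-2 family.

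Proteins of this family share a curved core of leucine-rich repeats that binds collagen fibrils, and they influence how wide the fibrils grow and how they are spaced. Many carry chains of chondroitin, dermatan or keratan sulfate, and several bind growth factors of the TGF-beta group or signal through receptors of the cell surface. In connective tissue they are made mostly by fibroblasts and related mesenchymal cells, and in the thymus such cells fill the capsule and the septa and surround vessels.

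Total counts ran from 11516780 to 19171953 per library, and 17800 to 22708 genes had a count. Mcl1 was at 227.8, 301.9, 259.3 and 240.9 CPM in the WT cTEC libraries and 8.23 CPM in the KO cTEC library, a log2 fold change of -4.97 ± 0.44 (SE). It was at 112.7 and 203.5 CPM in the WT mTEC libraries and 78.7 CPM in the KO mTEC library, and that lower level did not pass the test (log2 fold change -1.01 ± 0.36, adjusted p = 0.538, edgeR quasi-likelihood test with Benjamini-Hochberg adjustment). The summed level of 10 cortical epithelial markers was 5183 to 10441 CPM in WT cTECs and 9904 CPM in KO cTEC. It was 2307.5 and 2112.4 CPM in WT mTECs and 2493.1 CPM in KO mTEC. The medullary regulator Aire was at 28.9 to 116.2 CPM in WT cTECs, was listed at 0 in KO cTEC, and was at 338.5 to 553.5 CPM in the 3 mTEC libraries. The sum of 10 medullary markers, Aire among them, did not follow the labels in WT: it was 3141 to 4147 CPM in WT cTECs, 2853 and 3026 CPM in WT mTECs, 1955 CPM in KO cTEC and 3545 CPM in KO mTEC, and of the 10 genes 5 were higher and 3 lower in WT mTECs, Krt5 and Krt14 among the lower. Tuft cell markers, of a cell type of the medulla, summed to 1194 to 1914 CPM in WT cTECs, 880.4 and 1015 CPM in WT mTECs, 39.8 CPM in KO cTEC and 816.8 CPM in KO mTEC. The WT cTEC libraries thus held more RNA of these markers than the WT mTEC libraries, and the part of this in the comparisons with WT cTECs was not tested. WT cTEC library 1 stood apart from the other 3 in immediate-early genes, whose sum was 2568 CPM there and 16978 to 24162 CPM in libraries 2 to 4. That sum was 1894 and 1039 CPM in WT mTECs, 5246 CPM in KO cTEC and 3153 CPM in KO mTEC. WT cTEC libraries 2 to 4 thus differed from all other libraries, and the part of this in the comparisons with WT cTECs was not tested. Results that rest on the WT cTEC libraries are given with and without library 1 where the call moves.

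Levels of different genes were compared per kilobase of gene length (CPM per kb), because longer genes give more reads. In WT cTECs Dcn, which encodes decorin, was the most abundant of the 10 genes at 322.5 ± 59.6 CPM per kb (SD, n = 4), a level above that of 99.2% of the genes tested. Prelp followed at 45.9 ± 8.07 and Fmod at 39.5 ± 8.72 CPM per kb, a pair that did not differ beyond its spread. Lum at 5.84 ± 2.75, Bgn at 5.01 ± 1.04 and Ogn at 4.59 ± 2.13 CPM per kb formed a lower tier whose members overlapped each other. Aspn, Ecm2, Podn and Omd lay between 0.231 and 0.659 CPM per kb. Dcn also ranked first of the 10 in WT mTECs, KO cTEC and KO mTEC, where its level lay above 90.4%, 98.8% and 98.4% of the tested genes.

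**Figure D1:**
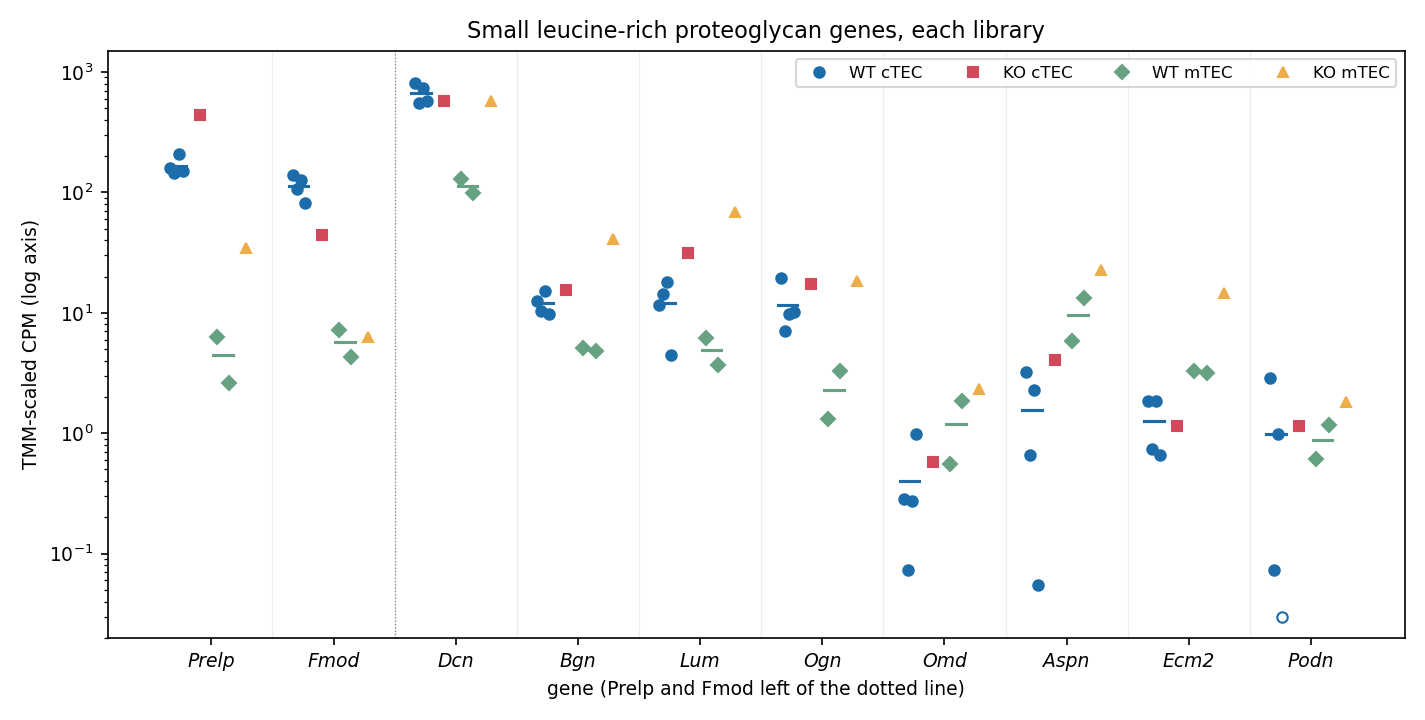
Levels of the 10 genes in each of the 8 libraries, as CPM on a log axis, with 1 symbol per library and a bar at the mean of the WT cTEC and WT mTEC groups; the open circle at the foot of the Podn column is WT cTEC library 4, which had 0 counts. Prelp and Fmod sit above 80 CPM in all 4 WT cTEC libraries and under 8 CPM in both WT mTEC libraries, and the KO mTEC library (triangle) is the highest mTEC library for 9 of the 10 genes.

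Prelp encodes a proline- and arginine-rich member of the family that binds heparan sulfate at basement membranes as well as collagen. Fmod encodes fibromodulin, a keratan sulfate carrier that binds type I collagen and takes part in fibril assembly. Both genes lie on chromosome 1 of the mouse build GRCm38.p6, the patch release of mm10. Prelp spans 133910304 to 133930102 on the minus strand, Fmod spans 134037254 to 134048280 on the plus strand, and 107.2 kb separates them. The RefSeq promoter windows of that build run from 250 bases before to 50 bases after a transcript start, and 8 of the 10 genes had one. They are shown for Prelp (chr1:133921352-133921651, minus strand, inside the annotated span of the gene) and Fmod (chr1:134037004-134037303, plus strand), the neighbours that were both high in WT cTECs but moved in opposite directions in the KO cTEC library, and both read 5′ to 3′ with capitals on matches to the motif CCAAT.
Prelp: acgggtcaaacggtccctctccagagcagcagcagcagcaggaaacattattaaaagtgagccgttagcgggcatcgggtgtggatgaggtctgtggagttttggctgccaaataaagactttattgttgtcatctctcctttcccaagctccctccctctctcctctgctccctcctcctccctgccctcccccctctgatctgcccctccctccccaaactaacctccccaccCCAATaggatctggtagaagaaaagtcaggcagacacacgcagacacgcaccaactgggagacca
Fmod: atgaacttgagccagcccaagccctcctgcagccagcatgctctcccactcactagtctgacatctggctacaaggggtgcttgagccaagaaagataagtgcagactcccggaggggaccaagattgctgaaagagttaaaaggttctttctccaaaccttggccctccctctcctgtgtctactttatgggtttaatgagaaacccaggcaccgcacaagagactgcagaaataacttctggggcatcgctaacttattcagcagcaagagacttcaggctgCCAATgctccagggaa
Each window held 1 match, which started 15 bases before the start site in Prelp and at base 35 after it in Fmod. Searched on both strands, CCAAT occurred in 37.4% of 32851 such windows, and TATAAA had no match in either window, nor had GACGC or GGGCGG. The window of Prelp held 7 CG pairs and that of Fmod 3, against a median of 7 over all windows.

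Prelp was high in cTECs and low in mTECs of WT mice. Its level was 158.6, 143.9, 208.2 and 151.3 CPM in the 4 WT cTEC libraries and 6.27 and 2.59 CPM in the 2 WT mTEC libraries. The lowest cTEC library lay far above the highest mTEC library, and the log2 fold change of mTEC against cTEC was -5.22 ± 0.40 (SE). Fmod was at 138.3, 105.8, 126.4 and 81.4 CPM in WT cTECs and at 7.15 and 4.33 CPM in WT mTECs, again without overlap. Its log2 fold change was -4.30 ± 0.33. The contrast between these populations was in view when Prelp and Fmod were set apart, so these values describe the pair and carry no test. Of 10 cortical markers, 8 were lower in the same WT mTEC libraries (13.9% of all tested genes). Ranked per kb among all tested genes, Prelp went from above 89.2% of the tested genes in WT cTECs to above 16.7% in WT mTECs, and Fmod from above 87.1% to above 24.8%.

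The Mcl1 KO cTEC library moved Prelp and Fmod apart. Prelp was at 440.3 CPM there, above all 4 WT cTEC libraries and 2.66 times their mean of 165.5 ± 29.1 CPM (SD, n = 4). The rise passed the test (log2 fold change 1.41 ± 0.35, 95% interval 0.61 to 2.21, adjusted p = 0.0267, edgeR). Fmod was at 44.5 CPM, below all 4 WT cTEC libraries and 0.394 of their mean of 113.0 ± 24.9 CPM, and it fell (log2 fold change -1.34 ± 0.37, 95% interval -2.19 to -0.50, adjusted p = 0.0398, edgeR). These were the only calls among the 10 genes in this comparison, 1 higher and 1 lower, where 17.5% of all 18163 tested genes were called (5.1% higher and 12.4% lower). Both calls depended on single WT libraries: that of Prelp was lost without WT cTEC library 2 (adjusted p = 0.0635, edgeR), and that of Fmod without library 2 (0.0668) or library 3 (0.0778). Without library 1, Prelp gave adjusted p = 0.0248 and Fmod 0.034 by edgeR, and with library 1 as the sole WT cTEC library their log2 fold changes were 1.38 and -1.73, in a fit whose spread came from the 2 WT mTEC libraries alone. In the same KO library 3 of 10 cortical markers rose and 0 fell, while 8 of 10 medullary and 10 of 10 tuft cell markers fell and 0 rose. The part of these shifts in the values of Prelp and Fmod was not tested.

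In mTECs too, Prelp had the higher value in the KO library, whereas Fmod lay within the WT range. Prelp was at 34.3 CPM in KO mTEC, above both WT mTEC libraries, with a log2 fold change of 2.96 ± 0.43 that did not pass the test after adjustment (adjusted p = 0.134, edgeR). Fmod was at 6.33 CPM, between the WT mTEC values (log2 fold change 0.14 ± 0.41, 95% interval -0.81 to 1.09, adjusted p = 0.973, edgeR). In the same KO mTEC library 0 of 10 cortical markers were called. At an unadjusted p under 0.05 (edgeR), 3 of them were higher (3.54% of all tested genes) and 0 lower. The estimates of 8 of the 10 were positive. Psmb11 was at 12.8 and 10.1 CPM in WT mTECs and 26.5 CPM in KO mTEC, and Prss16 at 56.4 and 43.9 CPM and 92.7 CPM. Ackr4 was at 10.7 and 10.8 CPM in WT mTECs and 27.6 CPM in KO mTEC, whereas Dll4 was at 15.0 and 16.7 CPM and 14.8 CPM. The part of these markers in the KO mTEC values of the proteoglycan genes was not tested. The KO effect in mTECs minus that in cTECs was 1.54 ± 0.59 for Prelp (adjusted p = 0.193, edgeR) and 1.49 ± 0.54 for Fmod (adjusted p = 0.171, edgeR), so a difference of the effect between the populations was not called for either gene.

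The balance of Prelp to Fmod restates the same values within each library, free of library size, and is not separate evidence. Per kb, Prelp stood to Fmod as 0.910, 1.08, 1.31 and 1.47 in the WT cTEC libraries, 0.696 and 0.474 in the WT mTEC libraries, 7.86 in KO cTEC and 4.31 in KO mTEC. Both KO libraries lay above all 6 WT libraries. On the log2 scale the ratio was higher by 2.74 in KO cTEC than the WT cTEC mean and by 2.91 in KO mTEC than the WT mTEC mean. A two-sided exact permutation test gave p = 0.2 in cTECs and p = 0.333 in mTECs, the smallest values that 1 library against 4 and 1 against 2 allow. Between the WT populations the log2 ratio was -1.03 in mTECs relative to cTECs (exact permutation p = 0.0667, the smallest possible with 2 against 4). Part of the Prelp count is uncertain, because Prelp shares 350 exon bases with an antisense gene, Gm15851, and the sources used here do not give the strand setting of the counting.

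**Figure D2:**
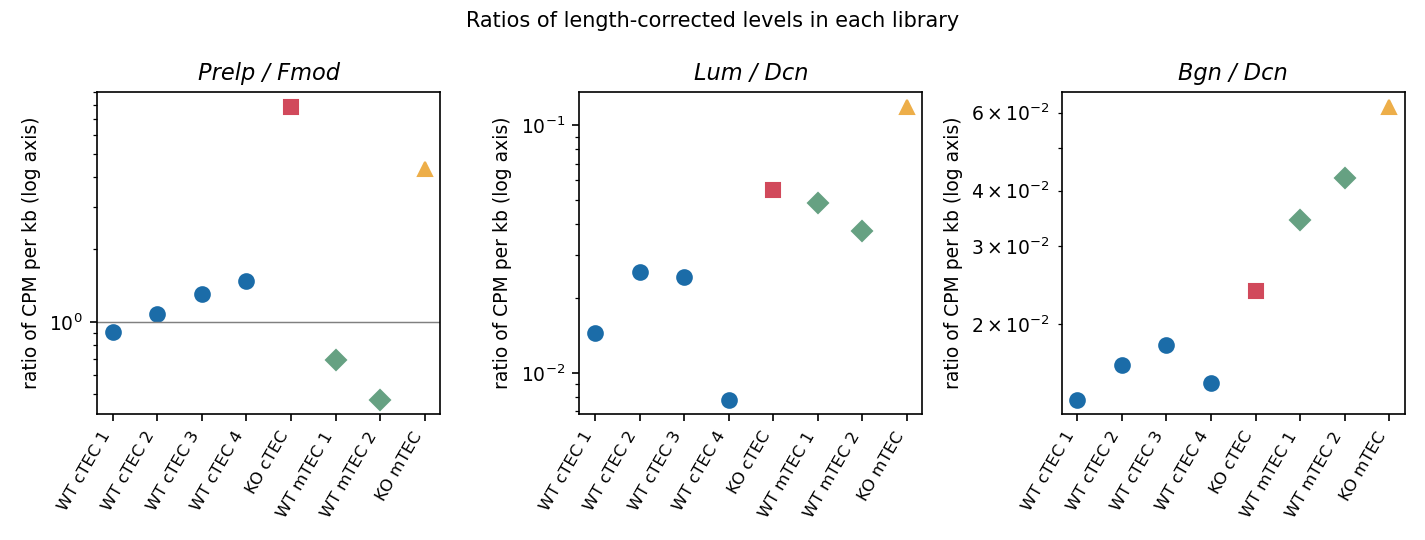
Ratios of length-corrected levels (CPM per kb) in each library on log axes: Prelp to Fmod, Lum to Dcn and Bgn to Dcn, with 1 symbol per library, coloured by group, and a line at equal levels in the Prelp panel. Prelp to Fmod is 7.86 in KO cTEC and 4.31 in KO mTEC against at most 1.47 in the WT libraries, and the KO mTEC library is the highest of all for both ratios to Dcn.

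The 5 genes whose levels ran most like those of Prelp over the 8 libraries, by Pearson's r of log2 CPM among 10958 genes, were Laptm4a (r = 0.995), Trappc11 (0.991), Bcam (0.99), Scn1a (0.988) and Aebp1 (0.987). Like Prelp, Bcam was highest in KO cTEC, at 464.4 CPM against 214.8 to 235.0 CPM in WT cTECs, and it was at 17.4 and 19.7 CPM in WT mTECs and 60.3 CPM in KO mTEC. The 5 genes most like Fmod were Anxa2 (r = 0.992), Ppp3ca (0.986), Wwtr1 (0.985), Isoc1 (0.985) and Gab1 (0.984). Anxa2 was at 1328 to 1690 CPM in WT cTECs, 1138 CPM in KO cTEC, 520.2 and 665.5 CPM in WT mTECs and 683.3 CPM in KO mTEC. These correlations rank genes over libraries of 2 cell populations and are descriptions. No gene was on both lists, and 4 of the 5 names on each list were the same when libraries were scaled by DESeq2 size factors. Among the proteoglycan genes themselves, Prelp ran closer to Dcn (r = 0.918) than to Fmod (0.86). Fmod ran closer to Prelp than to Dcn (0.789). Aebp1 was also among the 5 genes most like Dcn (r = 0.955).

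Decorin, the product of Dcn, carries a chondroitin or dermatan sulfate chain, binds collagen and TGF-beta, and is widely used as a fibroblast marker. In these libraries its level followed the cortical population in WT mice. Dcn was at 813.0, 557.0, 739.2 and 579.4 CPM in WT cTECs and at 128.7 and 99.1 CPM in WT mTECs, with no overlap. It was lower in mTECs by a log2 fold change of -2.56 ± 0.24 (adjusted p = 0.000955, edgeR), and this call held under all 14 alternatives run for it. The gene lies on chromosome 10 from 97479500 to 97518163 on the plus strand, 47.3 kb before Lum.

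The KO cTEC library held Dcn at 573.2 CPM, inside the WT cTEC range (log2 fold change -0.23 ± 0.27, 95% interval -0.86 to 0.40, adjusted p = 0.596, edgeR). The KO mTEC library held it at 575.5 CPM, close to the KO cTEC value and above both WT mTEC libraries, 5.05 times their mean of 113.9 ± 21.0 CPM (SD, n = 2). That log2 fold change of 2.34 ± 0.28 did not pass adjustment (adjusted p = 0.0961, edgeR; 0.0425 without WT cTEC library 1), and 0 of all 18163 genes passed in that comparison. The difference of the KO effects did pass: it was larger in mTECs than in cTECs by 2.57 ± 0.41 on the log2 scale (adjusted p = 0.00817, edgeR). Among the 10 genes 2 were called in this test of the difference, Dcn and Bgn, both with the larger effect in mTECs, where 6.81% of all tested genes were called (6.16% with the higher value in mTECs and 0.644% with the lower). At an unadjusted p under 0.05, 6 of the 10 had the higher value in mTECs (Prelp, Fmod, Dcn, Bgn, Lum and Ogn), where 14.8% of all tested genes did.

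Bgn encodes biglycan, the closest relative of decorin, which can act on Toll-like receptors when released from the matrix. It was at 12.6, 10.3, 15.2 and 9.76 CPM in WT cTECs and 5.06 and 4.86 CPM in WT mTECs, and it was lower in mTECs (log2 fold change -1.27 ± 0.29, adjusted p = 0.0166, edgeR). That call was lost when either WT mTEC library was left out (adjusted p = 0.111 and 0.139, edgeR). The KO cTEC level of 15.6 CPM lay just above the WT cTEC libraries (log2 fold change 0.38 ± 0.34, adjusted p = 0.482, edgeR). The KO mTEC level was 40.9 CPM, 8.23 times the WT mTEC mean (log2 fold change 3.04 ± 0.38, adjusted p = 0.0961, edgeR), and it was the highest of all 8 libraries. The KO effect was larger in mTECs than in cTECs by 2.66 ± 0.54 (adjusted p = 0.0226, edgeR), a call lost without WT mTEC library 1 (0.0817) or library 2 (0.0847) and by limma-voom (0.0578).

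Ogn encodes osteoglycin, also called mimecan, a small member that regulates collagen fibrils. It was at 19.5, 7.08, 9.83 and 10.2 CPM in WT cTECs and 1.32 and 3.28 CPM in WT mTECs, and it was lower in mTECs (log2 fold change -2.33 ± 0.56, adjusted p = 0.0188, edgeR). Without WT mTEC library 1 or 2 the adjusted p was 0.136 or 0.0659, so that call also rested on both libraries. Ogn stood at 17.4 CPM in KO cTEC, inside the WT range (log2 fold change 0.58 ± 0.61, adjusted p = 0.541, edgeR), and at 18.3 CPM in KO mTEC, above both WT mTEC libraries (2.98 ± 0.68, adjusted p = 0.34, edgeR).

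Promoter windows of Bgn (chrX:73483351-73483650, plus strand) and Ogn (chr13:49607765-49608064, plus strand) are also shown. Dcn, Bgn and Ogn were called in the WT comparison, and of these only Bgn and Ogn had a window. Capitals mark matches to GGGCGG, written here as its reverse complement, in Bgn, and to TATAAA on either strand in Ogn.
Bgn: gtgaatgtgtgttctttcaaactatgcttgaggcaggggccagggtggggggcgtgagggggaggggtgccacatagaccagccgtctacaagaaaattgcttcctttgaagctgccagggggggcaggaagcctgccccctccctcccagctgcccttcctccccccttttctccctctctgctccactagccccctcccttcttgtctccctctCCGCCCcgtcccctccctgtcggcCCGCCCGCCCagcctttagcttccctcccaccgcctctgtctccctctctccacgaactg
Ogn: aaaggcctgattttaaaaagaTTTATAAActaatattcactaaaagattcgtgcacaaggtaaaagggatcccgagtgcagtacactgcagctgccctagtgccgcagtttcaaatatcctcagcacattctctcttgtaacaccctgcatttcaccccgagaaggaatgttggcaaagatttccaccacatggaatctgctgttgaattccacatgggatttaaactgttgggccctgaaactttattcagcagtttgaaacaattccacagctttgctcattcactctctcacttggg
The window of Bgn held 3 matches to GGGCGG, of which 2 overlapped each other, all on the minus strand and starting 34, 10 and 6 bases before the start site. The motif occurred in 35.7% of all windows. The window of Ogn held 2 overlapping TATAAA matches, 1 on each strand, that started 229 and 227 bases before the start site, and 13.6% of all windows held that motif. None of the 4 motifs searched was present in all 4 windows shown. Bgn had 9 CG pairs and Ogn 4 in these windows, and the highest number among the 10 genes was 41, in 1 of the 2 windows of Podn.

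Lum encodes lumican, a keratan sulfate carrier known for ordering the collagen of the cornea, and it lies on chromosome 10 from 97565501 to 97572703. It was at 11.7, 14.2, 18.0 and 4.50 CPM in WT cTECs and 6.22 and 3.70 CPM in WT mTECs, groups that overlapped through WT cTEC library 4 (log2 fold change -1.29 ± 0.52, adjusted p = 0.0993, edgeR). Without that library the adjusted p was 0.0147. Lum was at 31.3 CPM in KO cTEC, above the WT cTEC libraries (1.37 ± 0.57, adjusted p = 0.138, edgeR), and at 68.1 CPM in KO mTEC, 13.7 times the WT mTEC mean (3.78 ± 0.67, adjusted p = 0.214, edgeR). Neither passed the test.

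Ecm2, Aspn, Omd and Ogn lie in a row in this order on the plus strand of chromosome 13, between 49504810 and 49624501. They lie inside the span of Cenpp on the opposite strand. Aspn encodes asporin, a member with an aspartate-rich end and no sulfated chain, and it shares 7 exon bases with Cenpp. Its level was 3.21, 0.66, 2.28 and 0.055 CPM in WT cTECs and 5.89 and 13.2 CPM in WT mTECs, higher in both mTEC libraries. The log2 fold change of 2.62 ± 0.96 did not pass (adjusted p = 0.0745, edgeR), while DESeq2 (0.0249) and limma-voom (0.0224) called it, as did edgeR without WT cTEC library 1 (0.0276) or 4 (0.0421). Aspn was at 4.05 CPM in KO cTEC and 22.9 CPM in KO mTEC.

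Ecm2, a matrix gene with leucine-rich repeats related to those of the family, was at 1.85, 0.74, 1.85 and 0.66 CPM in WT cTECs and 3.30 and 3.17 CPM in WT mTECs (log2 fold change 1.34 ± 0.58, adjusted p = 0.122, edgeR). It was at 1.16 CPM in KO cTEC and 14.7 CPM in KO mTEC, above both WT mTEC libraries (2.18 ± 0.80, adjusted p = 0.542, edgeR). Omd, which encodes the bone keratan sulfate proteoglycan osteoadherin, stayed between 0.074 and 2.35 CPM in all 8 libraries. Podn, which encodes podocan, ranged from no count in WT cTEC library 4, which allows up to 0.165 CPM, to 2.85 CPM in WT cTEC library 1. At these levels no difference in Omd or Podn was detectable, and the 95% interval of the log2 fold change of Podn between WT populations ran from -3.63 to 3.36.

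Among the 8 genes other than Prelp and Fmod, 3 were called lower in WT mTECs than in WT cTECs (Dcn, Bgn and Ogn) and 0 higher, where 27% of all tested genes were called, 13.2% higher and 13.9% lower. The calls of Bgn and Ogn were lost without either WT mTEC library, and that of Dcn was not. At an unadjusted p under 0.05, 4 of the 8 were lower (20.2% of all tested genes) and 1, Aspn, was higher (20.9%). The groups did not overlap for Dcn, Bgn and Ogn, lower in mTECs (24.7% of all tested genes), nor for Aspn and Ecm2, higher in mTECs (30.3%). The median log2 fold change of the 8 was -0.70, against 0.06 over all genes, and Aspn, Ecm2 and Omd had positive estimates.

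**Figure D3:**
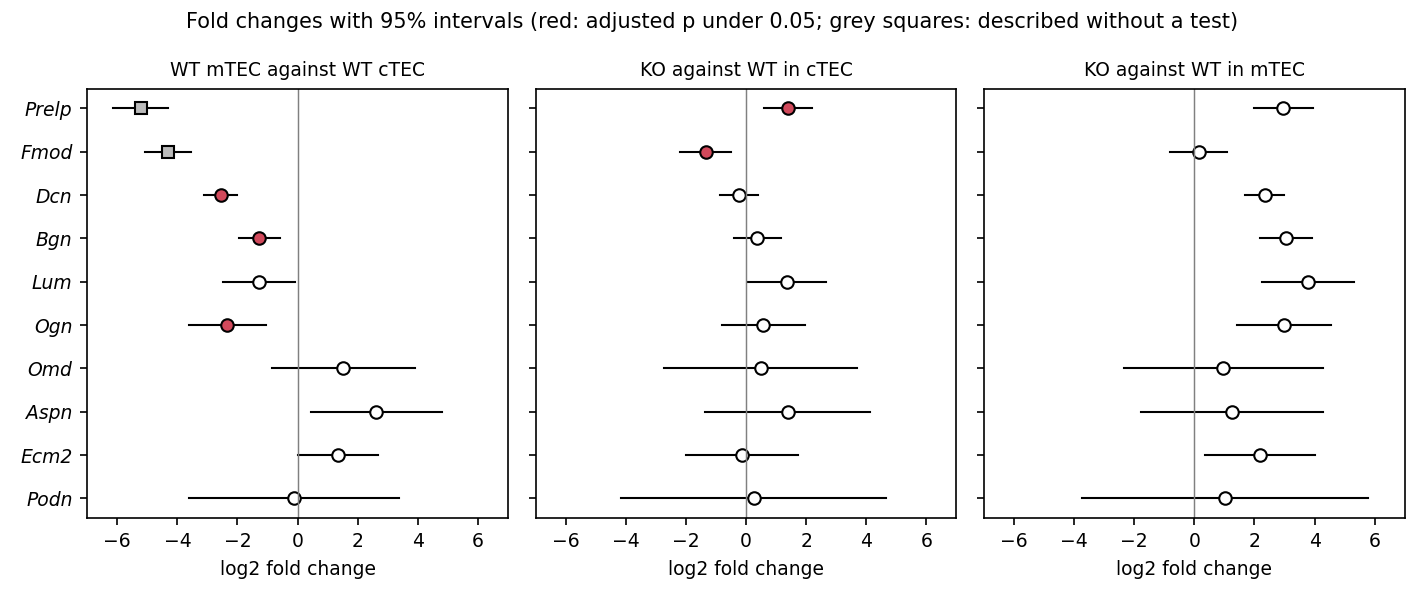
Log2 fold changes of the 10 genes with 95% intervals for WT mTEC against WT cTEC, KO against WT in cTECs and KO against WT in mTECs; red points passed an adjusted p under 0.05 (edgeR), and grey squares mark Prelp and Fmod in the WT comparison, which are described without a test. Red points are 3 in the left panel (Dcn, Bgn and Ogn), 2 in the middle panel, where Prelp is at 1.41 and Fmod at -1.34, and 0 in the right panel, where all 10 estimates are above 0.

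Against WT mTECs, the KO mTEC library held higher levels of most of the 10 genes, though edgeR called 0 of them and 0 of all genes. The library lay above both WT mTEC libraries for 9 of the 10 genes, all but Fmod, where 38.6% of all tested genes lay above both, and below both for 0, where 41.7% lay below. At an unadjusted p under 0.05, 6 genes were higher (Prelp, Dcn, Bgn, Lum, Ogn and Ecm2), against 3.54% of all tested genes. The median log2 fold change of the 10 was 2.26, against -0.03 over all genes. DESeq2 called 5 of them higher (Prelp, Dcn, Bgn, Lum and Ogn) among 139 genes in all, and limma-voom called 0. In KO cTEC the median of the 10 was 0.43, against -0.14 over all genes. That library lay above all WT cTEC libraries for 4 genes (Prelp, Bgn, Lum and Aspn; 29% of all tested genes) and below all of them for Fmod alone (32.9%), and 2 genes, Prelp and Lum, were higher at an unadjusted p under 0.05 (11.6% of all tested genes). Both KO comparisons use a single KO library, assumed to vary like the WT libraries.

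Shares of the summed CPM of the 10 genes were taken for Dcn, Prelp and the 7 genes other than Prelp, Fmod and Dcn. In KO cTEC each of these shares lay outside the WT cTEC values. In KO mTEC the shares of Dcn and of the 7 lay between the WT mTEC values. The share of Prelp lay above them there, at 4.37% against 3.80% and 1.89% in WT mTECs. Dcn made up 65.9% to 70.0% of the summed CPM of the 10 genes in WT cTECs, 72.2% and 78.0% in WT mTECs, 73.3% in KO mTEC and 50.8% in KO cTEC, where Prelp made up 39.0% against 13.6% to 18.6% in WT cTECs. The 7 genes summed to 26.2 to 51.9 CPM in WT cTECs, 22.9 and 31.2 CPM in WT mTECs, 71.2 CPM in KO cTEC and 169.0 CPM in KO mTEC. As a share of the sum they were 3.12% to 4.47% in WT cTECs, 6.31% in KO cTEC, 13.9% and 22.8% in WT mTECs and 21.5% in KO mTEC. Relative to Dcn, per kb, Lum stood at 0.0078 to 0.0257 in WT cTECs, 0.0375 and 0.0485 in WT mTECs, 0.0548 in KO cTEC and 0.119 in KO mTEC. Bgn stood at 0.0135 to 0.0179 of Dcn in WT cTECs, 0.0343 and 0.0428 in WT mTECs, 0.0237 in KO cTEC and 0.0619 in KO mTEC.

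Markers of other cells moved with several of these values. The summed level of 18 fibroblast markers was 340.4 to 520.1 CPM in WT cTECs, 244.9 and 273.7 CPM in WT mTECs, 648.7 CPM in KO cTEC and 821.1 CPM in KO mTEC. Of the 17 tested, 2 were higher and 4 lower in WT mTECs, and 6 were higher and 2 lower in KO cTEC. In KO mTEC 0 were called, and 7 were higher at an unadjusted p under 0.05 (3.54% of all tested genes). By DESeq2 6 of them were higher in KO mTEC. Over all tested genes 13.2% were called higher and 13.9% lower in WT mTECs, and 5.1% higher and 12.4% lower in KO cTEC. These shares apply beside the counts of this list and of the lists that follow. Among the fibroblast markers Twist2 was at 0 in 4 of the 8 libraries and Cd248 in 1. Col1a1, a chain of type I collagen, was at 5.92 to 15.7 CPM in WT cTECs and 81.6 CPM in KO cTEC (log2 fold change 3.03 ± 0.45, adjusted p = 0.00299, edgeR), and at 8.36 and 13.8 CPM in WT mTECs and 111.2 CPM in KO mTEC (3.32 ± 0.55, adjusted p = 0.18, edgeR). Other markers of the list fell in KO cTEC: Vim was at 56.1 to 88.1 CPM in WT cTECs and 16.5 CPM in KO cTEC (-2.07 ± 0.31, adjusted p = 0.00332, edgeR), and Lox at 59.7 to 86.2 CPM and 10.2 CPM (-2.86 ± 0.39, adjusted p = 0.002, edgeR). Of 10 pericyte or smooth muscle markers, 0 rose and 3 fell in KO cTEC. Rgs5 was at 28.6 to 49.4 CPM in WT cTECs and 1.16 CPM there (-5.06 ± 0.43, adjusted p = 0.000247, edgeR). Acta2 and Tagln, at 229.4 and 270.3 CPM there, lay inside their WT cTEC ranges of 229.3 to 297.8 and 237.3 to 311.9 CPM. The list summed to 771.8 to 841.5 CPM in WT cTECs and 629.3 CPM in KO cTEC. Its sum was 607.5 and 589.7 CPM in WT mTECs and 761.9 CPM in KO mTEC. The summed level of 4 erythroid markers was 16.1 to 70.4 CPM in the WT libraries, 408.1 CPM in KO cTEC and 952.5 CPM in KO mTEC. For 10 endothelial markers the sum was 40.5 to 147.8 CPM in the WT libraries, 32.8 CPM in KO cTEC and 231.0 CPM in KO mTEC. The part of these cells in the levels of the 10 genes was not tested. In bulk RNA, a change in the number of cells of a type and a change in RNA per cell cannot be told apart.

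**Figure D4:**
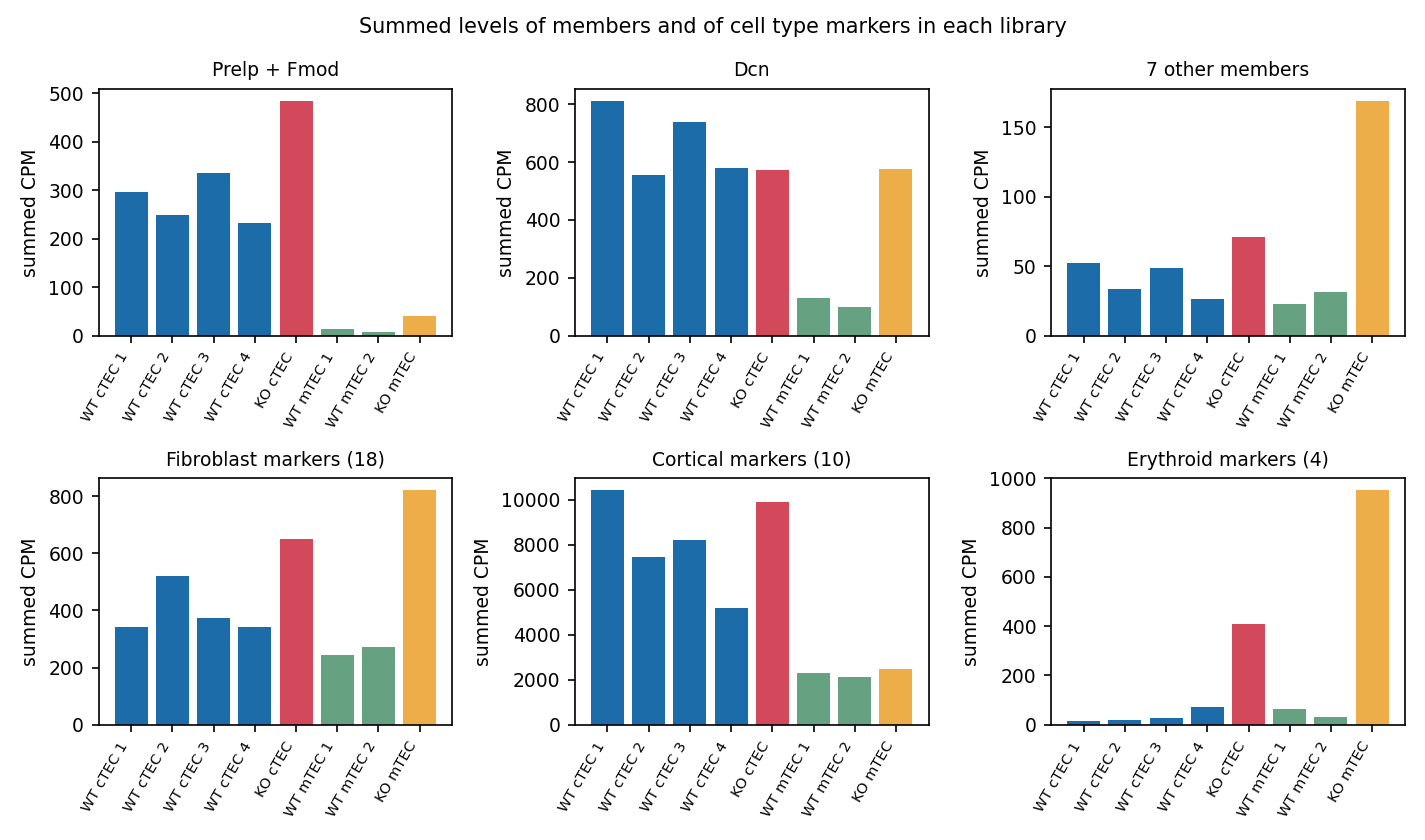
Summed CPM in each of the 8 libraries for Prelp and Fmod, Dcn, the 7 other genes and the fibroblast, cortical and erythroid marker lists; each bar is 1 library, coloured by group, and every axis starts at 0. The 7 other genes and the fibroblast markers are highest in KO mTEC (169.0 and 821.1 CPM), whereas the sum of Prelp and Fmod is highest in KO cTEC, where Prelp alone is at 440.3 CPM and Fmod at 44.5 CPM.

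Fibrillar and microfibrillar collagens are the main binding partners of the family. Of 11 collagen genes tested, 4 were lower and 0 higher in WT mTECs. Col6a1, a chain of the collagen VI network that decorin and biglycan bind, fell from 295.2 to 494.1 CPM in WT cTECs to 91.6 and 97.4 CPM in WT mTECs (log2 fold change -2.06 ± 0.23, adjusted p = 0.00144, edgeR). Col3a1 was at 67.6 to 274.0 CPM in WT cTECs and 8.98 and 15.7 CPM in WT mTECs, a call (adjusted p = 0.00845, edgeR) that was lost without either WT mTEC library. In KO cTEC 3 collagen genes rose and 3 fell: Col1a1 and Col1a2 were among those that rose, with Col1a2 lost without WT cTEC library 4 (adjusted p = 0.0512, edgeR), while Col6a1 fell to 110.9 CPM (log2 fold change -1.83 ± 0.30, adjusted p = 0.00487, edgeR).

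Enzymes that build the sulfated chains were counted by chain type. Of 22 genes for chondroitin and dermatan sulfate, 11 were lower and 1 higher in WT mTECs (13.9% and 13.2% of all tested genes). The median of the list was -0.52. Xylt2, a xylosyltransferase that starts the chain on the core protein, was at 23.8 to 35.1 CPM in WT cTECs and 6.39 and 8.86 CPM in WT mTECs (log2 fold change -1.94 ± 0.27, adjusted p = 0.00287, edgeR). Chst14, which sulfates dermatan, was at 15.4 to 26.2 CPM and 4.12 and 4.95 CPM (-2.05 ± 0.33, adjusted p = 0.0048, edgeR). Without WT mTEC library 2 neither call held (adjusted p = 0.0519 and 0.0699, edgeR). In KO cTEC 1 gene of this list rose and 1 fell: Xylt1, the other xylosyltransferase, was at 1.16 CPM against 19.0 to 47.7 CPM in WT cTECs (-4.83 ± 0.65, adjusted p = 0.00186, edgeR), which limma-voom did not call (0.0682).

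Of 8 keratan sulfate enzymes tested, 2 were higher and 1 was lower in WT mTECs, and 3 fell in KO cTEC, where 0 rose. Chst2, a sulfotransferase, was at 62.1 to 73.3 CPM in WT cTECs and 11.6 CPM in KO cTEC (log2 fold change -2.53 ± 0.24, adjusted p = 0.000369, edgeR). Its KO effect differed between the populations by 2.79 ± 0.31 (adjusted p = 0.00149, edgeR), with 65.7 CPM in KO mTEC and 53.5 and 56.7 CPM in WT mTECs.

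Among 16 receptors and growth factors that family members bind, 7 were lower and 1 was higher in WT mTECs, and 3 rose and 3 fell in KO cTEC. Tgfbr2, a TGF-beta receptor, was at 65.0 to 83.4 CPM in WT cTECs and 7.87 and 11.1 CPM in WT mTECs (log2 fold change -3.04 ± 0.22, adjusted p = 0.000624, edgeR), and it reached 307.3 CPM in KO cTEC (1.98 ± 0.22, adjusted p = 0.00073, edgeR). It was at 15.6 CPM in KO mTEC. The ligand gene Tgfb2 ran the other way in KO cTEC, at 3.98 CPM against 19.5 to 28.0 CPM in WT cTECs (-2.55 ± 0.33, adjusted p = 0.00157, edgeR). Bmp4 was at 61.1 CPM in KO cTEC and 3.35 to 11.1 CPM in WT cTECs (3.24 ± 0.50, adjusted p = 0.00363, edgeR).

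Of 15 matrix proteases and processing genes tested, 6 were lower and 1 was higher in WT mTECs. Mmp2, a gelatinase, was at 82.0 to 92.4 CPM in WT cTECs and 14.6 and 16.6 CPM in WT mTECs (log2 fold change -2.49 ± 0.17, adjusted p = 0.000567, edgeR). In KO cTEC 3 fell and 1 rose, and Htra1, a secreted serine protease, was at 60.7 CPM there against 217.4 to 307.9 CPM in WT cTECs (-2.08 ± 0.28, adjusted p = 0.00202, edgeR). Of 18 other matrix and heparan sulfate proteoglycans, 7 were lower and 3 higher in WT mTECs, and 4 rose and 3 fell in KO cTEC. Gpc6, a glypican, rose to 47.9 CPM in KO cTEC from 4.72 to 9.06 CPM in WT cTECs (3.01 ± 0.41, adjusted p = 0.00196, edgeR). In KO mTEC edgeR called 0 genes of the lists of collagens, enzymes, receptors, proteases and other proteoglycans, of which 0 to 4 per list had an unadjusted p under 0.05. DESeq2 called 3 collagens and 2 of the protease list higher there, and limma-voom called 0.

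Other members of the wider family were scarce, and 7 of 9 could be tested. In WT mTECs 3 were higher, Optc, Kera and Nepn, and 0 were lower. Optc, which encodes opticin of the eye, lies 0.6 kb from Prelp and was at 0.96 to 1.47 CPM in WT cTECs and 5.78 and 7.98 CPM in WT mTECs (log2 fold change 2.57 ± 0.50, adjusted p = 0.00912, edgeR), opposite in direction to Prelp. Kera, which encodes keratocan and lies 34.3 kb past Lum, had 0 to 7 counts in WT cTECs and 27 and 57 in WT mTECs, and its call was lost when any 1 of 5 WT libraries was left out. The call of Optc was lost without WT mTEC library 1 (adjusted p = 0.0649) or 2 (0.133, edgeR). Of 17 tested genes that neighbour the 10, other than the 10 themselves, 6 were higher and 1 was lower in WT mTECs (13.2% and 13.9% of all tested genes). In KO cTEC 0 were higher and 2 lower (5.1% and 12.4%).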

How the data were processed

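The 10 genes and the gene lists were chosen with earlier results of these data known. The authors deposited raw read counts per gene, whole numbers without normalization, made with featureCounts on mm10 per the submitters' processing notes, and per the file headers each file also gives a gene length. The aligner, annotation, tool versions and strand setting were not stated in the sources used here. Per the labels' protocols, cDNA from frozen cell pellets was amplified with a low-input kit and sequenced as paired ends. A deposited table of the whole series was not used, because its 8 columns match no label. Of 27179 identifiers, 25275 (93%) had a symbol in the RefSeq gene table.

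Samples were grouped by the labelled population and genotype. Counts were scaled by TMM, and CPM is on that scale. Genes at 1 CPM or more in at least 2 libraries, 18163, were fitted with edgeR 4.0.16 (quasi-likelihood, robust, R 4.3.3), with 1 mean per group over all 8 libraries (4 residual degrees of freedom). Tests were two-sided, and p-values were adjusted by Benjamini-Hochberg over all genes tested, with calls under 0.05. The SE is the absolute log2 fold change divided by the square root of F. A count of 0 was given an upper limit of 3 counts, which covers counting error only. DESeq2 1.42.0, limma-voom (limma 3.58.1), other scaling and filters, WT libraries only, a replicate block and left-out libraries were the alternatives. On simulated data for the KO cTEC comparison (16585 genes) the test called 78% of genes changed by 2 and 98% of those changed by 4 on the log2 scale. In that simulation all groups had the WT cTEC means, and only genes with a mean of at least 10 CPM were changed. Those rates do not cover Omd, Aspn, Ecm2 and Podn, whose WT cTEC means were 0.404 to 1.55 CPM. Nor do they cover changes smaller than 2, such as the 1.41 of Prelp and the -1.34 of Fmod in KO cTEC.

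All 10 genes were named in every comparison. From each list, the called genes of largest change were eligible, up to 2 per direction and comparison, with a mean log2 CPM not under 3. Optc, Kera and Nepn were named outside that rule, as neighbours or after their values were seen. So were Krt5, Krt14, single values of Aire, and Acta2 and Tagln in KO cTEC. The mTEC values of Col1a1, Tgfbr2, Psmb11, Prss16, Ackr4 and Dll4 were also given outside it. Gene lists held 220 genes in 18 lists, of which 219 were found. No 2 libraries were near-identical: the same count occurred in at most 4.47% of genes in any pair.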

Additional observations from a re-analysis of the deposited data

Results flagged for a closer look

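The effect of the KO library differed between mTECs and cTECs for 2 of the 10 genes, by a test of the difference itself. For Dcn the KO effect in mTECs exceeded that in cTECs by 2.57 on the log2 scale (adjusted p = 0.00817, edgeR), with KO libraries at 575.5 CPM in mTECs and 573.2 CPM in cTECs and WT means of 113.9 and 672.1 CPM. For Bgn the difference was 2.66 (adjusted p = 0.0226, edgeR), with 40.9 CPM in KO mTEC, 15.6 CPM in KO cTEC and WT means of 4.96 and 12.0 CPM. The call of Dcn held under all 12 alternatives run for it, whereas that of Bgn was lost without WT mTEC library 1 (adjusted p = 0.0817, edgeR), without WT mTEC library 2 (0.0847) and by limma-voom (0.0578). Summed fibroblast markers were 821.1 CPM in KO mTEC and 648.7 CPM in KO cTEC, and their part in these differences was not tested. Each effect rests on a single KO library.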

How the results depend on the processing

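In mTECs against cTECs of WT mice, DESeq2, limma-voom and the fit with WT cTEC libraries 2 to 4 left out each called 1 of the 10 genes higher (Aspn) in place of 0, and leaving out single libraries gave 0 to 1. In the fit with libraries 2 to 4 left out, here and in the other comparisons, the spread came from the 2 WT mTEC libraries alone. The 5 genes called lower, Prelp and Fmod among them, became 3 to 6 when single libraries were left out, and calls over all genes went from 4912 to between 603 and 6762, with 603 without WT mTEC library 2, 1162 without WT mTEC library 1 and 3176 without WT cTEC library 3. The replicate numbers were not taken as pairs. Deviations from the group mean in same-numbered WT libraries correlated at r = -0.146 and -0.0194. With 2 WT mTEC libraries, the deviations of 1 are the mirror image of those of the other, so these values cannot decide whether the libraries were paired. With the replicate block, 3 of the 10 genes were lower at that cut-off: Dcn and, described without a test, Prelp and Fmod. In that fit 1985 genes in all were called, and Podn turned to 0.20. In KO cTEC, genes called higher and genes called lower each ranged from 0 to 1 without single libraries. Over all genes, 3179 calls became 1735 by limma-voom, 6078 with WT cTEC libraries 2 to 4 left out, where Lum and not Prelp was the gene called higher, and 2256 to 4182 without single libraries. In KO mTEC, 0 genes of the 10 became 5 by DESeq2, 6 without WT cTEC libraries 2 to 4 and 0 to 1 without single libraries. Over all genes 0 became 139, 734 and 0 to 7, and leaving out WT cTEC library 1 gave the 7. The cause was not tested. For the difference of the KO effects, 2 genes called higher became 1 by limma-voom, 6 without WT cTEC libraries 2 to 4 and 1 to 3 without single libraries, and 1236 calls over all genes became 2050 by DESeq2, 117 by limma-voom, 4110 without those libraries and 649 to 1849 without single ones.

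Signs turned only for estimates that were not called. In the WT comparison Podn (-0.13) was 1.58 by limma-voom, 1.28 without WT cTEC library 1 and 0.26 without WT mTEC library 1, and its lowest value without a single library was -0.67. In KO cTEC, Ogn was -0.25 and Podn -1.39 without WT cTEC libraries 2 to 4, Podn was -0.13 and -0.14 without WT cTEC library 2 or 4, and Ecm2 was 0.022 by limma-voom and 0.088 and 0.100 without WT cTEC library 1 or 3. Without single libraries the other ends of their ranges were 1.67 (Podn) and -0.34 (Ecm2). In KO mTEC, Fmod was -0.18 without WT mTEC library 2 and 0.54 without library 1. For the difference of the KO effects, Omd was -0.45 and -0.15 without WT cTEC library 4 or WT mTEC library 1, Podn was -0.94 by limma-voom and -0.64 without WT cTEC library 1, and Aspn was 0.12, 0.28 and 0.57 without WT cTEC library 2, 4 or WT mTEC library 2, and 1.02 without WT cTEC libraries 2 to 4. The other ends of the ranges without single libraries were 0.81 (Omd), 1.31 (Podn) and -0.74 (Aspn). Omd and Podn had few counts in WT cTECs, and Podn also differed between libraries, with 40 counts in WT cTEC library 1 and 0 in library 4. Scaling by DESeq2 size factors moved the median of all genes by at most 0.065 (log2) and the mean levels by less than the spread between libraries.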
